A study of Mus musculus with 16 samples.

Results

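The MHC class II pathway was followed through LPS stimulation by 7 genes: H2-Aa, H2-Ab1, H2-Eb1, H2-DMa, H2-DMb1, Cd74 and Ciita. They were chosen by gene name on the array, which gave 12 probes for 7 genes of 17659 genes tested. All 12 probes were well above background on each of the 16 arrays. The cells were macrophages grown from bone marrow of male C57BL/6Jax mice in 10 ng/mL M-CSF (the macrophage growth factor) for 9 days, either wild type (WT) or lacking the microRNA miR-155 (KO). They were lysed unstimulated (0 h) or after 6, 12 or 24 h in 100 ng/mL LPS, a bacterial cell wall component, and every group, controls included, had the same M-CSF culture. The labels do not give the KO allele, the age of the mice, or whether replicates came from separate mice or cultures, so the tests below measure the spread between these samples. There were 2 single-colour arrays for each of the 8 groups, and the array count limits the precision of every value.

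MHC class II molecules are heterodimers of an alpha and a beta chain that carry peptides from endosomes to the surface of antigen-presenting cells, where CD4+ T cells read them. H2-Aa and H2-Ab1 encode the alpha and beta chains of the mouse I-A molecule, and H2-Eb1 encodes the beta chain of I-E. Cd74, the invariant chain, guides new class II molecules to endosomes and blocks their groove, and H2-DMa and H2-DMb1 form H2-DM, which exchanges the remnant of Cd74 for peptide. Ciita is the coactivator on which transcription of these genes depends: it binds no DNA itself but joins factors seated on the X and Y boxes of their promoters.

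Each array was scanned in 1 of 2 sessions, per the file headers, and the replicate number of an array was also its session. All replicate 1 arrays belonged to session 1 and all replicate 2 arrays to session 2. Both genotypes and all 4 times were present in each session. Between sessions the level of many genes moved, with 42.3% of the 17659 tested genes differing at 0 h. Session, culture and labelling cannot be told apart, since the labels and headers give only the number and the scan. No probe on the array is named for the deleted microRNA or its host gene, so the KO labels were not checked here. All 8 macrophage markers on the list (Csf1r, Adgre1, Cd68, Mertk, Fcgr1, Itgam, Cd14, Lyz2) were well above background in every group.

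The X and Y boxes are the promoter elements through which Ciita acts, and they are shown for those members in which both cores were found. RefSeq's promoter table (GRCm38.p6) held 5 start sites for 4 of the 7 members: H2-Aa, H2-Eb1, H2-DMb1 and 2 for H2-DMa. In the 250 bases before each start, both strands were searched for an X box core CCTNGNNAC, an X2 box core TGACG and a Y box core ATTGG. A looser X box core, CTNGNAAC, which overlaps the first, was chosen after the sequences were read. The stretches from the looser X core to the Y core follow, with every match in capitals.

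H2-Aa: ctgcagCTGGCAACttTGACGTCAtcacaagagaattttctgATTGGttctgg

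H2-Eb1: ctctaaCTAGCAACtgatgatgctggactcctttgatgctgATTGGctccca

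H2-DMb1: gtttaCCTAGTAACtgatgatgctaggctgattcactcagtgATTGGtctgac

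The H2-Aa stretch lies at chr17:34287861-34287913 on the minus strand, from position −90 to −38 relative to the start. The H2-Eb1 stretch lies at chr17:34305767-34305818 on the plus strand, from −100 to −49. The H2-DMb1 stretch lies at chr17:34153088-34153140 on the plus strand, from −103 to −51. In all 3 the looser X core preceded the Y core at nearly the same distance, 36 bases from start to start in H2-Aa and H2-DMb1 and 35 bases in H2-Eb1. The first X core matched only H2-DMb1 of these genes, and the X2 core only H2-Aa, where it matched on both strands because it overlaps its own reverse complement. Of the H2-DMa starts, one held none of the cores and the other held a Y core at −198.

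Single matches are common. Of 32851 promoters, 13.5% held the first X core, 17.8% the X2 core, 33.8% the Y core and 10.9% the looser X core. The first X core and the Y core occurred together in 4.32% of promoters, and the looser X core and the Y core in 3.75%. A match is a description of these letters only.

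The 4 H2-Ab1 probes are shown in part because 2 of them read the same stretch of the polymorphic beta chain with different letters. Probe A_51_P215242 lies at chr17:34401723-34401782 on the plus strand of mm9, the build of the array file. Probe A_52_P570717 has no position in the file. The first 31 bases of A_51_P215242 overlap the last 31 of A_52_P570717, 29 of them identical. The differing bases are in capitals.

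A_51_P215242: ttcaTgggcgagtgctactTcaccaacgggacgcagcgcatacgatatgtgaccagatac

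A_52_P570717: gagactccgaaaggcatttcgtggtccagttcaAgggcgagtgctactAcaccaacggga

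Counted from the 5′ end of A_51_P215242, the differences from it to A_52_P570717 are T5A and T20A. Neither probe stood for the gene in the tests of genes, but both were measured.

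A_51_P215237 (H2-Ab1): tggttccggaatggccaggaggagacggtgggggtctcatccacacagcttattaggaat

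A_52_P343306 (H2-Aa): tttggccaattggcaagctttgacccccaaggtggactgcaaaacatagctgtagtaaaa

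A_51_P393226 (H2-Eb1): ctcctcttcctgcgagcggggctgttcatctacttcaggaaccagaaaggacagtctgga

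These 3 probes read the classical chains. A_51_P215237 lies at chr17:34404388-34404447 on the plus strand of mm9 and was printed 10 times on each array. A_52_P343306 lies at chr17:34421285-34421344 on the minus strand and stood for H2-Aa. A_51_P393226 stood for H2-Eb1, and its span of chr17:34452050-34452511 is longer than its 60 bases. The probe that stood for H2-Ab1, A_52_P683598, lies at chr17:34406059-34406118, that for H2-DMa, A_51_P473734, at chr17:34274300-34274863, and that for H2-DMb1, A_51_P278868, at chr17:34297109-34297168. Ciita was read at chr16:10526303-10526362 by A_52_P109941. Exon and intron annotation of mm9 was not used here.

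All levels below are log2 intensities relative to the array's own 75th percentile, so 0 is that percentile. Levels of different probes are not set against each other.

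For H2-Ab1, the I-A beta chain, the level at 0 h was 2.56 (WT) and 3.41 (KO) in session 1 but −1.13 and −0.11 in session 2. At 6 h it was 3.64 and 4.35 in session 1 and 4.17 and 4.45 in session 2. At 24 h it was 2.75 and 3.38 in session 1 and 2.71 and 3.22 in session 2. Both unstimulated arrays of session 2 thus lay below every other array, and the sessions came together after LPS.

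H2-Aa, the I-A alpha chain, had the same shape. Its level at 0 h was 0.50 (WT) and 1.31 (KO) in session 1 and −3.42 and −2.32 in session 2. At 6 h it was 0.73 and 1.71 in session 1 and 1.56 and 2.22 in session 2. By 24 h the 4 arrays had come within a narrow range, from 0.02 to 0.54.

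H2-Eb1, the I-E beta chain, stood at 0.14 (WT) and 0.93 (KO) in session 1 and at −3.18 and −2.44 in session 2 at 0 h. After 6 h of LPS it stood at 0.95 and 1.44 in session 1 and at 0.73 and 1.25 in session 2. It was lower at 24 h than at 6 h on all 4 pairs of arrays, reaching −0.23 and −0.12 in session 1 and −0.86 and −0.50 in session 2.

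Cd74 started at 3.30 (WT) and 4.12 (KO) in session 1 and at 0.53 and 0.93 in session 2. Its highest level was at 6 h in each genotype and session, 4.51 and 5.10 in session 1 and 4.79 and 5.25 in session 2. At 24 h it was 3.28 and 3.66 in session 1 and 3.38 and 4.34 in session 2, so session 2 remained well above its own start.

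**Figure D1:**
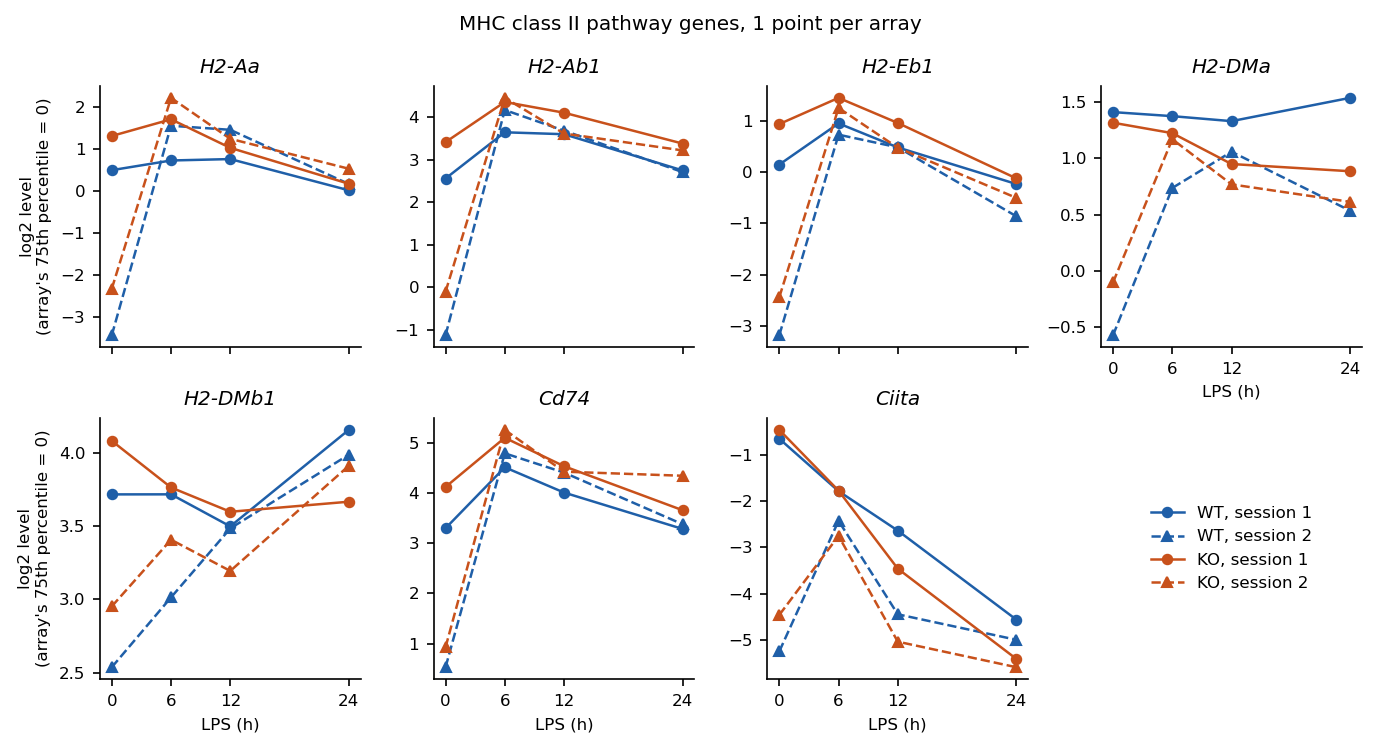
Level of each of the 7 genes (y axis, log2 relative to the array's 75th percentile, scaled separately for each gene) against hours of LPS (x axis), 1 point per array, WT in blue and KO in orange, session 1 as circles with solid lines and session 2 as triangles with dashed lines. At 0 h the session 2 arrays lie below the session 1 arrays for all 7 genes, for H2-Ab1 at −1.13 and −0.11 against 2.56 and 3.41.

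The pair that forms H2-DM moved less. H2-DMa was at 1.41 (WT) and 1.32 (KO) in session 1 and at −0.57 and −0.10 in session 2 at 0 h. At 24 h it was 1.54 and 0.89 in session 1 and 0.53 and 0.61 in session 2. H2-DMb1 was at 3.72 and 4.08 in session 1 and at 2.54 and 2.95 in session 2 at 0 h, and at 4.16, 3.67, 3.99 and 3.91 in the same order at 24 h. Its highest value in session 2 was therefore at 24 h in both genotypes, later than for the classical chains.

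Ciita, the coactivator, differed most between sessions at the start and went another way afterwards. Its level at 0 h was −0.66 (WT) and −0.47 (KO) in session 1 and −5.25 and −4.46 in session 2. At 6 h it was −1.79 and −1.78 in session 1 and −2.43 and −2.76 in session 2. At 24 h all 4 arrays were low, at −4.56 and −5.41 in session 1 and at −5.00 and −5.59 in session 2. The lowest probe well above background on these arrays lay between −6.52 and −5.94, so Ciita at 24 h was measured near the lower end of the range. The same held in session 2 at 0 h and at 12 h (−4.45 in WT and −5.04 in KO). On those arrays the lowest such probe lay between −6.59 and −5.78.

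A limma fit with a term for each session and time and 1 for genotype measured these gaps. It was chosen after the gap at 0 h had been seen, and the WT and KO arrays of a session and time serve as its 2 arrays. The SE and p values of this fit rest on the spread within a session and time. They do not measure how well a response to LPS repeats between sessions. At 0 h, 7 of 7 members were lower in session 2, against 26.6% of all tested genes, and their median difference was −3.35 against −0.18 over all genes. Ciita was 19.6-fold lower (log2 −4.29 ± 0.36 SE, adjusted p = 6.42e-05), and only 38 of the 17659 genes had a difference this low or lower, itself included. H2-Aa was 13.7-fold lower (−3.78 ± 0.29), H2-Ab1 12.1-fold (−3.60 ± 0.23), H2-Eb1 10.2-fold (−3.35 ± 0.20) and Cd74 7.86-fold (−2.97 ± 0.20). H2-DMa was 3.26-fold lower and H2-DMb1 2.23-fold lower, with adjusted p = 0.00108 and 0.00382 by limma. Each of the 7 calls held when any 1 of the 16 arrays was left out.

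After LPS few members differed. Between sessions 0 of 7 passed in this limma fit at 6 h and at 24 h, although 38.7% and 40.8% of all genes did, and 1 of 7 at 12 h, where 39.1% did. At an unadjusted p under 0.05, 2 members would have passed at 6 h (H2-Aa and H2-DMb1) and 2 at 24 h (H2-Eb1 and H2-DMa), against 49.1% and 50.4% of all genes. Ciita was the member called at 12 h (−1.69 ± 0.36, adjusted p = 0.00637), a call that was lost without the WT 12 h replicate 1 array (adjusted p = 0.0534). The intervals at 6 h were wide enough to hold a difference: for H2-Aa from 0.01 to 1.33.

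**Figure D2:**
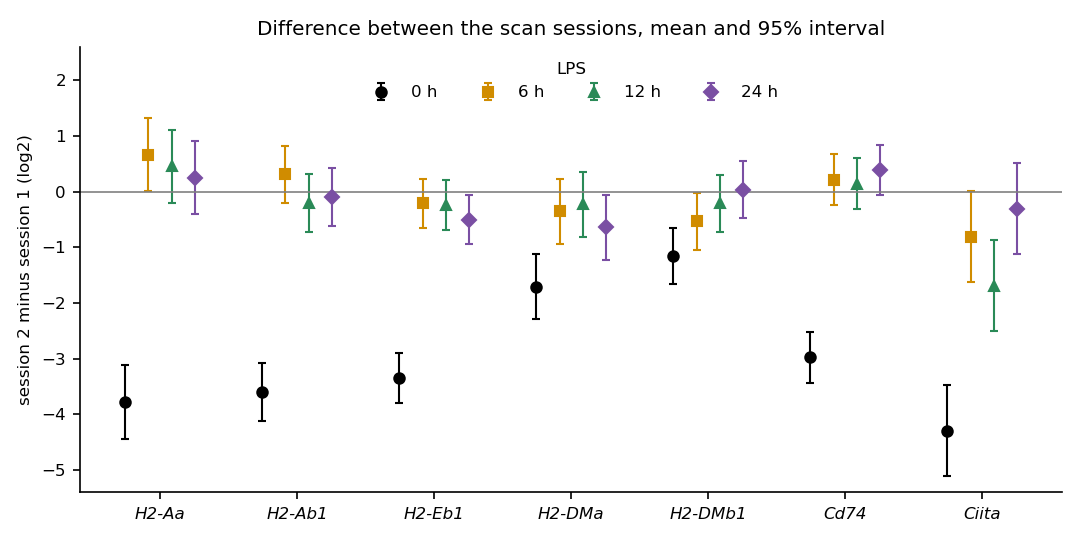
Session 2 minus session 1 (y axis, log2) for each gene (x axis) at 0, 6, 12 and 24 h of LPS, as the mean over WT and KO with its 95% interval. The 0 h points (black circles) run from −4.29 for Ciita to −1.15 for H2-DMb1, while after LPS they run from −1.69 (Ciita at 12 h) to 0.67 (H2-Aa at 6 h).

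The response to LPS was then read within each session. In session 2, 6 of 7 members rose by 6 h (31.6% of all genes did), all but H2-DMb1, whose difference was 0.47 ± 0.23 (adjusted p = 0.102). H2-Ab1 rose 30.4-fold (log2 4.93 ± 0.23), H2-Aa 27.1-fold (4.76 ± 0.29), Cd74 19.5-fold (4.29 ± 0.20) and H2-Eb1 13.9-fold (3.79 ± 0.20). Ciita rose 4.79-fold (2.26 ± 0.36) and H2-DMa 2.45-fold (1.29 ± 0.26). At 12 h and at 24 h, 6 of 7 were again above 0 h, against 29.7% and 24.5% of all genes, and the member left out was Ciita at both times. At 24 h H2-Ab1 was 12.0-fold above 0 h (3.58 ± 0.23), H2-Aa 9.35-fold, Cd74 8.73-fold, H2-Eb1 4.36-fold and H2-DMb1 2.30-fold. The call of H2-DMb1 at 12 h (0.59 ± 0.23, adjusted p = 0.0474) held in 6 of 16 fits without 1 array, and that of H2-DMa at 24 h (0.91 ± 0.26, adjusted p = 0.0152) was lost without KO 24 h or WT 0 h replicate 2.

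In session 1 the differences from 0 h were smaller for the classical chains and Cd74, while Ciita fell more at 12 h and 24 h. At 6 h, 3 of 7 were higher (24.9% of all genes) and 1 was lower (29.6%). Cd74 rose 2.14-fold (1.09 ± 0.20), H2-Ab1 2.02-fold (1.02 ± 0.23) and H2-Eb1 1.58-fold (0.66 ± 0.20, adjusted p = 0.0177). The H2-Eb1 call was lost without any 1 of KO 6 h, WT 0 h or WT 6 h replicate 1. H2-Aa differed by 0.31 ± 0.29 (adjusted p = 0.402), H2-DMa by −0.06 ± 0.26 and H2-DMb1 by −0.16 ± 0.23, none of which passed. Ciita fell by 1.22 ± 0.36 (adjusted p = 0.017), a call lost without KO 0 h or WT 6 h replicate 1 (highest adjusted p = 0.123).

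Ciita therefore changed in opposite directions at 6 h in the 2 sessions, while the difference between its levels at 6 h (−0.81 ± 0.36) did not pass (adjusted p = 0.105). In session 1 it then fell further, by 2.49 ± 0.36 at 12 h and by 4.42 ± 0.36 at 24 h (21.4-fold, adjusted p = 1.71e-05 by limma), and both calls held in 16 of 16 fits without 1 array. In session 2 its difference from 0 h was 0.11 ± 0.36 at 12 h and −0.44 ± 0.36 at 24 h, and neither passed. Also in session 1, H2-Ab1 and Cd74 were higher at 12 h (23% of all genes were, and 24.7% were lower), by 0.87 ± 0.23 (lost without WT 0 h or WT 12 h replicate 1) and 0.56 ± 0.20, the Cd74 call at adjusted p = 0.0452 and holding in 4 of 16 fits without 1 array. At 24 h H2-Eb1 and Ciita were lower (19.3% of all genes), H2-Eb1 by −0.72 ± 0.20 (adjusted p = 0.018, lost without KO 0 h or KO 24 h replicate 1).

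The difference of the responses between sessions was tested in the same limma fit. The response at 6 h was larger in session 2 for 6 of 7 members, against 5.79% of all genes, with a median of 3.19 against 0.14. For H2-Aa it was larger by 4.45 (adjusted p = 0.000563), for H2-Ab1 by 3.91 and for Ciita by 3.48 (adjusted p = 0.00432). H2-DMb1 did not pass (0.62, adjusted p = 0.246), and H2-DMa (1.36, adjusted p = 0.0452) held in 4 of 16 fits without 1 array. At 12 h 6 of 7 passed (6.29% of all genes), all but H2-DMb1, with H2-DMa holding in 9 of 16 fits and Ciita lost without KO 0 h or KO 12 h replicate 1. At 24 h 6 of 7 passed (6.56%), all but H2-DMa, with H2-DMb1 (1.19, adjusted p = 0.0399) holding in 6 of 16 fits. These differences share the arrays at 0 h with the session gap above and are the same gap seen from the other side.

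**Figure D3:**
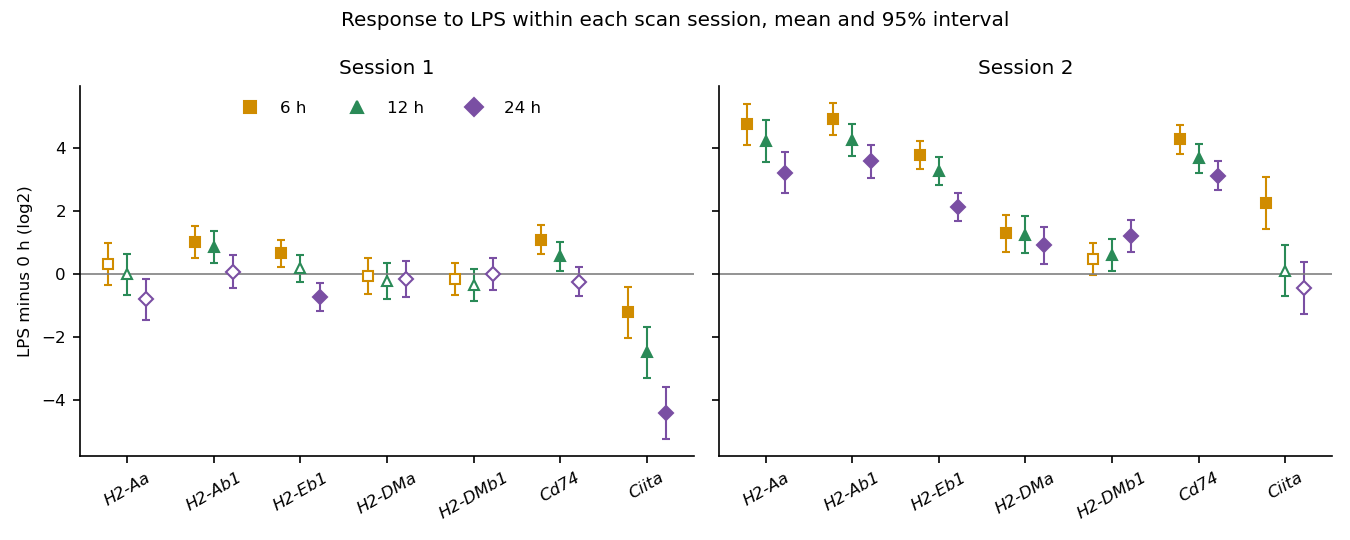
LPS minus 0 h (y axis, log2) for each gene (x axis) at 6 h (squares), 12 h (triangles) and 24 h (diamonds), session 1 at left and session 2 at right, mean over WT and KO with its 95% interval, filled where the adjusted p is under 0.05. H2-Ab1 at 6 h lies at 1.02 in session 1 and at 4.93 in session 2, and Ciita at 24 h at −4.42 and −0.44.

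From 6 h to 24 h of LPS, which leaves out the 0 h arrays, the sessions gave like values. In session 1, 5 of 7 members fell (25.9% of all genes) and in session 2 also 5 of 7 (24.5%): H2-Aa, H2-Ab1, H2-Eb1, Cd74 and Ciita in each. Ciita fell by 3.20 ± 0.36 in session 1 and by 2.70 ± 0.36 in session 2. H2-Eb1 fell by 1.37 ± 0.20 and 1.67 ± 0.20, Cd74 by 1.33 ± 0.20 and 1.16 ± 0.20, H2-Aa by 1.12 ± 0.29 and 1.53 ± 0.29, and H2-Ab1 by 0.94 ± 0.23 and 1.35 ± 0.23. In session 1 the H2-Aa call was lost without KO 24 h or KO 6 h replicate 1 and the H2-Ab1 call without KO 6 h replicate 1. H2-DMb1 rose in session 2 (0.74 ± 0.23, adjusted p = 0.0246, lost without any 1 of KO 24 h, WT 24 h or WT 6 h replicate 2; 20.4% of all genes rose). H2-DMa passed in neither session (−0.09 ± 0.26 and −0.38 ± 0.26).

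The fit with only the 8 group means, which takes the session gap as replicate error, called none of the members. For LPS against 0 h it called 0 of 7 in WT at 6, 12 and 24 h, where 25.4%, 19.3% and 11% of all genes passed, and 0 of 7 in KO, where 26%, 19.4% and 9.9% passed. At an unadjusted p under 0.05 by limma, 2 of 7 passed in WT at 6 h and at 12 h and in KO at 6 h, where 36.5%, 31.6% and 36.2% of all genes did. In the other 3 comparisons 0 of 7 passed at that unadjusted p by limma, against 22.1% to 31.6% of all genes. The median difference of the members was still 2.35 in WT and 2.10 in KO at 6 h, against 0.06 and 0.01 over all genes. Cd74 differed by 2.73 ± 0.97 in WT (adjusted p = 0.064) and by 2.65 ± 0.97 in KO (adjusted p = 0.0711). With the replicate number as a block, limma called 3 members higher in WT at 6 h (23.6% of all genes): H2-Ab1 (3.19, adjusted p = 0.0298), H2-Eb1 (2.35, adjusted p = 0.0495) and Cd74 (adjusted p = 0.0361). The block also called H2-Ab1 in WT at 12 h (2.93, adjusted p = 0.0492; 18.6% of all genes) and Cd74 in KO at 6 h (adjusted p = 0.042; 21%). From 6 h to 24 h the group means called 0 of 7 in either genotype (10.5% of all genes in WT, 12.9% in KO, and 0 of 7 at an unadjusted p under 0.05), and the block called Ciita lower in KO (15.9%).

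The comparison of KO with WT asks whether macrophages without miR-155 differ in class II expression. In the group-mean fit 0 of 7 members were called at 0, 6, 12 or 24 h, where 0%, 0%, 0.0113% and 0% of all genes passed. No member had an unadjusted p under 0.05 by limma (0 of 7 at each time), and of all genes only 0.244%, 0.832%, 0.946% and 1.21% did. With the block none was called either. The test of a difference in LPS response between the genotypes called 0 of 7 (0% of all genes, and 0 of 7 at an unadjusted p under 0.05 by limma). Averaged over the times, where 0.017% of all genes passed, the KO minus WT interval for H2-Ab1 ran from −0.72 to 1.83.

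Arrays of the same session and time, set side by side, gave 8 KO minus WT differences for each gene. Cd74 was higher in KO in 8 of 8 pairs, from 0.02 to 0.96 with a median of 0.50. H2-Ab1 was higher in 7 of 8 (median 0.57), H2-Aa in 7 of 8 (0.51) and H2-Eb1 in 7 of 8 (0.49). The 1 pair in which each of these 3 was lower was that of 12 h in session 2. H2-DMb1 was higher in 5 of 8, H2-DMa in 3 of 8 and Ciita in 3 of 8. The Ciita pairs at 0 h were higher in KO in both sessions (0.19 and 0.79), and those at 12 h and 24 h were lower. Only the session 1 pairs at 0 h and 24 h had both arrays on 1 slide. In session 2 the KO array was on slide 4 and the WT array on slide 3 at 0, 6 and 24 h, and the reverse held at 12 h. In pairs split over slides, genotype and slide cannot be told apart. With the slide as a block in the group-mean fit, KO minus WT at 6 h turned from 0.82 to −1.32 for H2-Aa, from 0.50 to −1.26 for H2-Ab1, from 0.51 to −0.96 for H2-Eb1 and from 0.53 to −1.20 for Cd74, none of them called.

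In the session-by-time fit the genotype term was 0.56 ± 0.12 for H2-Ab1, 0.52 ± 0.10 for Cd74, 0.52 ± 0.15 for H2-Aa and 0.44 ± 0.10 for H2-Eb1. By limma none of the 7 passed after adjustment over all genes (0.034% did), and their adjusted p values were 0.198, 0.183, 0.281 and 0.235. At an unadjusted p under 0.05 these 4 of 7 passed, as did 12.6% of all genes. The 95% intervals ran from 0.30 to 0.82 for H2-Ab1 and from 0.29 to 0.75 for Cd74, and for Ciita (−0.27 ± 0.18) from −0.68 to 0.13. A difference between the genotypes of the classical chains was thus not called at this number of arrays, and a KO excess of that size is not shown to be absent.

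**Figure D4:**
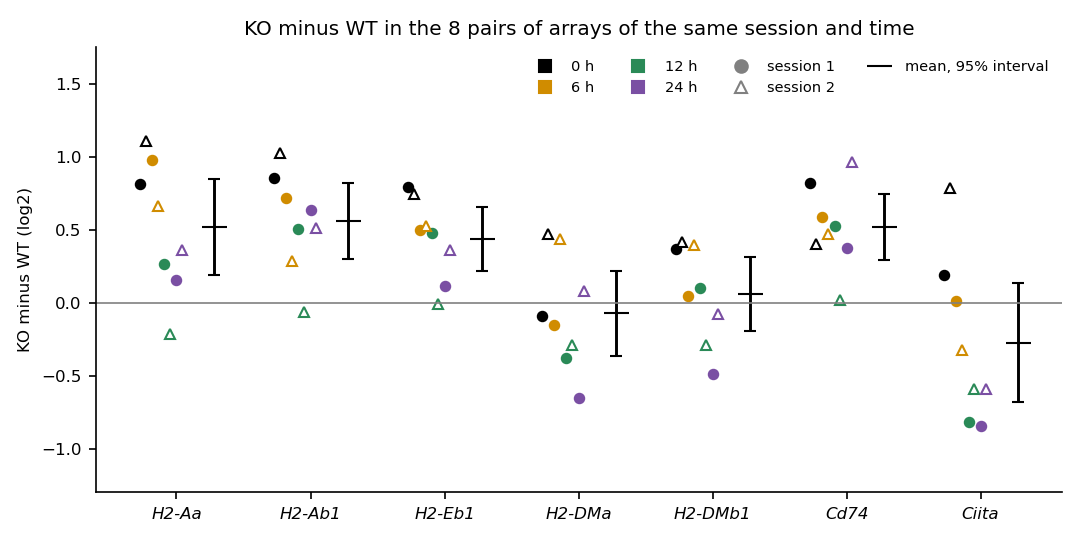
KO minus WT (y axis, log2) in each of the 8 pairs of arrays of 1 session and time, for each gene (x axis), coloured by time, filled circles for session 1 and open triangles for session 2, with the mean and 95% interval of the genotype term in black. Cd74 lies above 0 in 8 of 8 pairs (median 0.50), H2-DMa in 3 of 8.

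Other probes of the same genes moved in the same directions at 0 h and at 6 h in session 2. The session difference at 0 h was −3.60, −3.68, −3.65 and −3.81 for the H2-Ab1 probes A_52_P683598, A_51_P215237, A_51_P215242 and A_52_P570717. The pair that differs by T5A and T20A, with SE of 0.27 and 0.23, gave the last 2 of these values. At 6 h in session 2 the H2-Ab1 probes rose by 4.93, 4.97, 5.09 and 5.11 in that order, and in session 1 by 1.02, 0.97, 0.93 and 0.81, each past the threshold when all probes were fitted by limma. The second H2-Aa probe, A_51_P119760 (chr17:34420627-34420686 on mm9, minus strand), gave −3.77 at 0 h beside −3.78. Its fall at 24 h in session 1 passed the threshold (−0.80, adjusted p = 0.0384) where that of A_52_P343306 did not (−0.81, adjusted p = 0.0575). The second H2-DMb1 probe, A_52_P146877 (chr17:34294265-34294324 on mm9), is listed in the array file for H2-DMb2 also. Whether it reads both was not tested. It gave −0.84 at 0 h (adjusted p = 0.0395) and 1.10 at 24 h in session 2 (adjusted p = 0.00956).

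**Figure D5:**
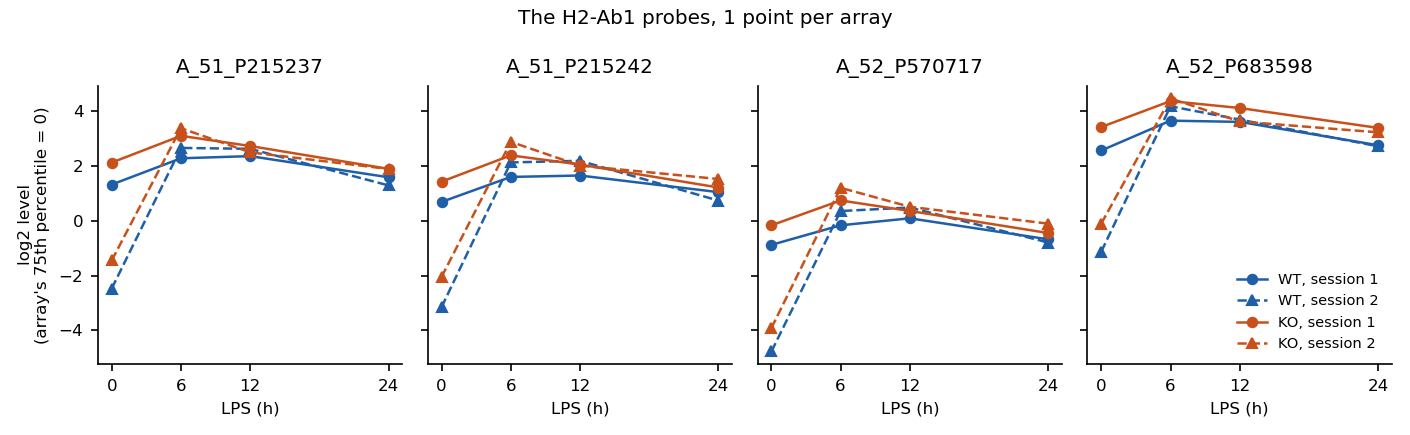
Level of the 4 H2-Ab1 probes (y axis, log2 relative to the array's 75th percentile) against hours of LPS (x axis), 1 panel per probe and 1 point per array, coloured and marked by genotype and session. In every panel both session 2 arrays at 0 h are the lowest points, at −4.77 and −3.91 for A_52_P570717.

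With each session centred on its own mean, the 3 classical chains and Cd74 rose and fell together over the 16 arrays. Pearson's r between pairs of them ran from 0.96 (H2-Ab1 with H2-Eb1) to 0.99 (H2-Ab1 with Cd74). H2-DMa correlated with them at 0.80 to 0.87 and H2-DMb1 at 0.34 to 0.47. Ciita correlated at 0.25 with H2-Ab1, 0.31 with Cd74, 0.40 with H2-Aa and 0.45 with H2-Eb1. These values are a description: the arrays share slides, times and sessions. For the classical chains and Cd74 both session 2 arrays at 0 h lay far below the rest of that session, so r rests heavily on them. H2-Ab1 lay there at −1.13 (WT) and −0.11 (KO), with the next array at 2.71. How r would stand without these arrays was not tested.

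Among 8995 other genes that varied enough over the groups, those most like the mean of the members included Apol6 (r = 0.96), Npy (0.95), Ccn2 (0.93), Sh3d21 (0.93), Skil (0.92), Olfr1218 (0.92) and Vash1 (0.92). Npy encodes neuropeptide Y. Those most like Ciita were Cxcl14 (0.96), Gpnmb (0.94), Ctsl (0.93), Cyth1 (0.93) and Msra (0.93). Ctsl encodes cathepsin L, a lysosomal protease, and Gpnmb a glycoprotein of lysosome-rich macrophages. The likeness was measured over the 16 arrays, each session centred.

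Genes that act with class II molecules were counted in the session-by-time fit by limma. Of 5 accessory genes 3 were tested, and H2-Ea and H2-Eb2 did not pass the filter. C57BL/6 mice carry a deletion in H2-Ea. H2-Oa, a chain of the H2-DM inhibitor H2-O, rose at 6 h by 2.59 ± 0.25 in session 1 and by 2.81 ± 0.25 in session 2, in the same direction. It was also lower in session 2 at 0 h (−1.50 ± 0.25), from −4.15 (WT) and −3.99 (KO) to −5.90 and −5.25. H2-Ob was called in none of these 3 comparisons. H2-DMb2, a second DM beta chain, was lower in session 2 at 0 h (−1.09 ± 0.38, adjusted p = 0.0441) and fell at 6 h in session 1 (−1.16 ± 0.38), while in session 2 its difference at 6 h was −0.04 ± 0.38. At 6 h in session 1 it lay at −5.92 (WT) and −6.40 (KO). The lowest probe well above background on those arrays was at −5.28 and −5.80, so the size of that fall was not well measured.

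Of 7 proteins that bind the X and Y boxes, 2 were higher, Rfx5 and Nfyc, and 1 lower, Rfxank, in session 2 at 0 h, against 15.7% and 26.6% of all genes. At 6 h Rfx5 and Nfyb rose in both sessions and Rfxap and Rfxank fell in both. In session 1 Rfx5 rose by 0.94 ± 0.24 and Rfxank fell by 1.92 ± 0.20. In session 2 Rfx5 rose by 1.06 ± 0.24 and Rfxank fell by 0.77 ± 0.20. The directions within the RFX complex, whose subunits act together, were thus not one.

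Of 13 genes known to act on Ciita, 12 were tested, and Ifng, which encodes interferon gamma, did not pass the filter. At 0 h session 2 was higher for 1 of 12 (Jak2, 0.91 ± 0.16) and lower for 3: Ifngr1 (−0.53 ± 0.14), Irf2 and Prdm1 (−1.88 ± 0.17), against 15.7% higher and 26.6% lower among all genes. Prdm1 encodes Blimp-1, a repressor of Ciita. At 6 h 10 of 12 rose and 2 fell in each session, while of all genes 24.9% rose and 29.6% fell in session 1 and 31.6% rose and 29.7% fell in session 2. Socs1, an inhibitor of interferon gamma signalling, rose by 7.44 ± 0.19 in session 1 and by 7.50 ± 0.19 in session 2. Irf4 fell by 2.13 ± 0.63 and 3.69 ± 0.63. Its 6 h levels were −6.79 (WT) and −7.16 (KO) in session 1 and −6.13 and −8.06 in session 2. Each lay below the lowest probe well above background on its array, so the size of the fall was not well measured. Prdm1 rose by 0.85 ± 0.17 in session 1 and by 3.01 ± 0.17 in session 2, and its response differed between the sessions (2.16 ± 0.24, adjusted p = 0.00117). The part of these genes in the level of Ciita was not tested.

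Of 7 antigen processing enzymes 4 were lower in session 2 at 0 h (26.6% of all genes were): Ctss, Ctsl, Ctsb and Ctsd. Ctss, which trims Cd74 in class II compartments, was at 9.46 (WT) and 9.59 (KO) in session 1 and at 7.93 and 8.30 in session 2 (−1.41 ± 0.17). At 6 h it rose in session 2 (1.02 ± 0.17), and in session 1 its difference was 0.26 ± 0.17 (adjusted p = 0.217). Ctss was also called lower in session 2 at 6, 12 and 24 h. Ifi30, a thiol reductase for antigens, fell in session 1 at 6 h (−0.76 ± 0.18).

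Surface class II is removed by the ubiquitin ligase Marchf1 and lowered by the cytokine Il10. Il10 was at −3.54 (WT) and −3.39 (KO) in session 1 and at 1.09 and 1.63 in session 2 at 0 h. It was thus higher in session 2, by 4.83 ± 0.37 (limma adjusted p = 4.03e-05). It rose at 6 h in both sessions, by 5.03 ± 0.37 and by 2.12 ± 0.37. Il10 was also higher in session 2 at 6, 12 and 24 h. At 24 h it was at 1.13 (WT) and 0.49 (KO) in session 2 against −0.95 and −2.01 in session 1. Marchf1 went the other way at 0 h (−1.06 ± 0.22) and rose at 6 h by 2.66 ± 0.22 in session 1 and by 3.46 ± 0.22 in session 2. The part of Il10 in the level of the members was not tested.

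Markers of other class II positive cells also moved with session. Of 8 tested dendritic cell markers (of 11 listed), 4 were lower in session 2 at 0 h, against 26.6% of all genes: Flt3 (−3.29 ± 0.41), Ccr7 (−1.68 ± 0.27), Xcr1 (−1.62 ± 0.39) and Itgax (−1.60 ± 0.26), with 0 higher. On the session 2 arrays at 0 h the lowest probe well above background lay at −6.55 (WT) and −6.59 (KO). Ccr7 (−8.25 and −7.67) and Flt3 in KO (−6.71) lay below that, so the size of these differences was not well measured. The summed level of the list at 0 h was 4.82 (WT) and 4.17 (KO) in session 1 and 2.94 and 3.10 in session 2. At 6 h it was higher than at 0 h on all 4 arrays, but the markers did not move as one. Itgax, the brightest tested marker at 0 h, was lower at 6 h. It went from 4.69 to 4.45 (WT) and 4.01 to 3.80 (KO) in session 1, and from 2.65 to 2.27 and 2.84 to 2.37 in session 2. Fscn1 was higher, in session 1 from −4.16 to 2.50 (WT) and −4.78 to 2.36 (KO), and in session 2 from −1.97 to 3.45 and −4.02 to 3.94. Cd209a, Clec9a and Dpp4 were not tested. Of the markers lower in session 2 at 0 h, Itgax, Flt3 and Xcr1 were lower there at 6 h too, in both genotypes. Itgax then lay at 2.27 (WT) and 2.37 (KO) against 4.45 and 3.80 in session 1. At 6 h Ccr7 lay at −3.13 (WT) and −2.83 (KO) in session 2 against −2.76 and −3.10 in session 1.

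The summed level of the macrophage markers was 10.6 (WT) and 10.9 (KO) in session 1 and 9.72 and 9.83 in session 2 at 0 h. The sum follows its brightest marker, Lyz2, at 9.89 and 10.22 in session 1 and 8.45 and 8.46 in session 2. Cd14, Cd68 and Itgam went the other way and were higher in session 2 in both genotypes, while the rest were lower. The summed level remained lower in session 2 at 6 h, at 10.9 and 11.2 against 11.5 and 11.4. Of 4 tested B cell markers 3 were lower in session 2 at 0 h (26.6% of all genes were), with Cd79a, Pax5, Fcer2a and Ebf1 failing the filter. Ms4a1 then lay at −8.14 (WT) and −8.84 (KO), below the lowest probe well above background (−6.55 and −6.59), so its difference was not well measured. Cd79b, the brightest of the 4, lay at −0.99 (WT) and −1.23 (KO) in session 1 and at −1.41 and −1.61 in session 2. Of 3 tested T and NK cell markers Cd3e was lower (−2.45 ± 0.32). In such bulk samples fewer cells of a type and less RNA per cell cannot be told apart. The part of these cells in the level of the members was not tested.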

How the data were processed

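Total RNA of 16 samples was measured on single-colour (Cy3) Agilent arrays, 2 for each of 8 groups taken from the labels. Spot intensity, background-subtracted within the array, comes from the deposited scanner output of Agilent Feature Extraction 10.5.1.1, per the file headers. The deposited series table, an alternative, holds log2 values. No column of values was left unmapped.

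Control spots (1639 per array) and outlier spots (61 to 108) were dropped. Log2 intensities were averaged per probe and set relative to each array's 75th percentile. Probes well above background on both arrays of at least 1 group were kept (26855 of 41077), and each gene was read by its brightest probe on average. limma 3.58.1 (R 4.3.3) fitted 8 group means, with Benjamini-Hochberg adjustment over 17659 genes and a threshold of 0.05. A second limma fit, by session and time with genotype as a term, was added after the data were seen, as were its alternatives. Both were tested on simulated data. Other scalings, background corrections, filters, blocks and left-out arrays were tried.

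Same-numbered arrays deviated together from their group means in all 28 pairs of groups (r from 0.40 to 0.84), so the replicate number pairs them and serves as a block. The members and lists were chosen with earlier results of these data known. Every member was named, and other genes by list or by likeness to the members. Some genes of the lists and of the likeness ranking are not reported here.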

Additional observations from a re-analysis of the deposited data

How the results depend on the processing

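In the group-mean fit no member was called in any comparison. With the replicate block, 3 were called in WT at 6 h, 1 in WT at 12 h, 1 in KO at 6 h and 1 from 6 h to 24 h in KO, and the block changed no other count. With the slide as a block, 5 were called in WT at 6 h, 1 in WT at 24 h, 2 in KO at 6 h, 2 in KO at 12 h and 1 from 6 h to 24 h in WT. The slide block turned the sign of 26 of 112 differences of members, 0 of them called in either fit, among them Ciita at 12 h in KO (−1.79 to 0.42). Scaling to the median called 2 in WT at 6 h. Leaving out 1 array gave 0 to 4 in WT at 6 h and at 12 h, 0 to 4 in KO at 6 h and 0 to 2 in KO at 12 h, the 4 each without the unstimulated session 1 array of that genotype.

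In the fit by session and time, the counts at 0 h, in session 2 and of the response differences stayed within 1.5 times of their values under every alternative run. Between sessions at 6 h (0 members), scaling to the median called 3, quantile normalization 1 and normexp background correction 1, and leaving out 1 array gave 0 to 1. At 12 h (1 member) these gave 3, 0 and 6, and 0 to 1. At 24 h (0 members) the median scaling called 1, and leaving out 1 array gave 0 to 1. In session 1, normexp called 2 at 6 h (against 4), 5 at 12 h (against 3) and 1 at 24 h (against 2), where the median scaling also called 1. The fall from 6 h to 24 h in session 1 was called for 3 members with the median scaling (against 5). Leaving out 1 array gave 2 to 4 at 6 h, 1 to 3 at 12 h, 1 to 3 at 24 h and 3 to 5 from 6 h to 24 h.

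With normexp 7 values of this fit that were called with or without it reversed, all at 12 h: between sessions H2-Ab1 to 2.66, H2-DMa to 1.05 and H2-DMb1 to 2.62, from 0 h in session 1 H2-Ab1 to −2.06, Cd74 to −2.46 and Ciita to 0.40, and the response difference of Ciita to −0.0549. On both session 1 arrays at 12 h the background mean fitted by normexp was far below 0 (−2734 in KO and −2508 in WT), while it was −179.5 or higher on the others. The 2 arrays per group limit the precision. Ciita at 24 h, and in session 2 also at 0 h and 12 h, lay near the lower end of what the arrays measured.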
